A study of Mus musculus with 36 samples.

Results

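The comparison of Ikaros with control cells at 24 h was made on 6 of the 36 libraries of the series, 3 from each of the 2 cell lines, which were selected by the cell line and time in the sample labels. All 12762 genes of the expression table were tested. The cells were B3, a mouse pre-B cell line. The Ikaros line carried a retroviral vector for Ikaros fused to the ligand-binding domain of the estrogen receptor (Ikaros-ERt2), and the control line carried the ERt2 vector without Ikaros. Both lines had received 4-hydroxy-tamoxifen, the ligand that moves the fusion protein into the nucleus, for 24 h, at the 0.5 uM written in the labels. Each line was sorted in bulk for the GFP of the vector and is therefore 1 infected population, so a difference between the lines includes whatever else distinguished the 2 populations. Each group held 1 library from each of culture batches 1, 3 and 4.

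Ikaros, encoded by Ikzf1, is a zinc finger transcription factor of lymphoid cells that both activates and silences genes and acts partly through the NuRD chromatin remodelling complex. Large pre-B cells divide in response to the pre-B receptor, in which the surrogate light chain (Igll1 with Vpreb1 or Vpreb2) stands in for the immunoglobulin light chain, and to interleukin 7. Small pre-B cells leave the cycle and rearrange the light chain genes with the Rag recombinase, and Ikaros is known to be required for this step.

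The values are log2 expression levels as the authors normalised them, and the lowest value of the table was exactly 1. A level is comparable between libraries for the same gene and is not a count. Such values carry no sequencing depth. Differences are given as Ikaros minus control on the log2 scale with the standard error (SE) of a limma fit. That fit held all 36 libraries in 12 groups. Each SE and adjusted p therefore rests on a spread pooled over all time points and not on the 6 libraries alone. A gene was called at a Benjamini-Hochberg adjusted p under 0.05 over all genes. In bulk RNA, fewer cells with a transcript and less of it in each cell cannot be told apart. The 3 control libraries came from 3 library preparation runs and the 3 Ikaros libraries from 2 other runs, with 0 runs in common, so within these 6 libraries the preparation and the cell line cannot be told apart. The authors adjusted for preparation before deposition, and a fit of all 36 libraries with a preparation term is given where it changed a result.

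At 24 h, 8024 of the 12762 genes were called (62.9%), of which 3953 (31%) were higher and 4071 (31.9%) lower in Ikaros cells. The median size of the called differences was 1.03, and the median over all genes was -0.0055. A difference of at least 1 was found for 2071 called genes in the higher and 2100 in the lower direction, of at least 3 for 249 and 178, and of at least 4 for 111 and 56. In 9062 genes (71%) the 3 libraries of one line all lay beyond the 3 of the other, which held for 7842 of the 8024 called genes. The median SE was 0.18. With a preparation term the number called was 6645, each of them called without the term and 0 with the opposite sign.

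**Figure D1:**
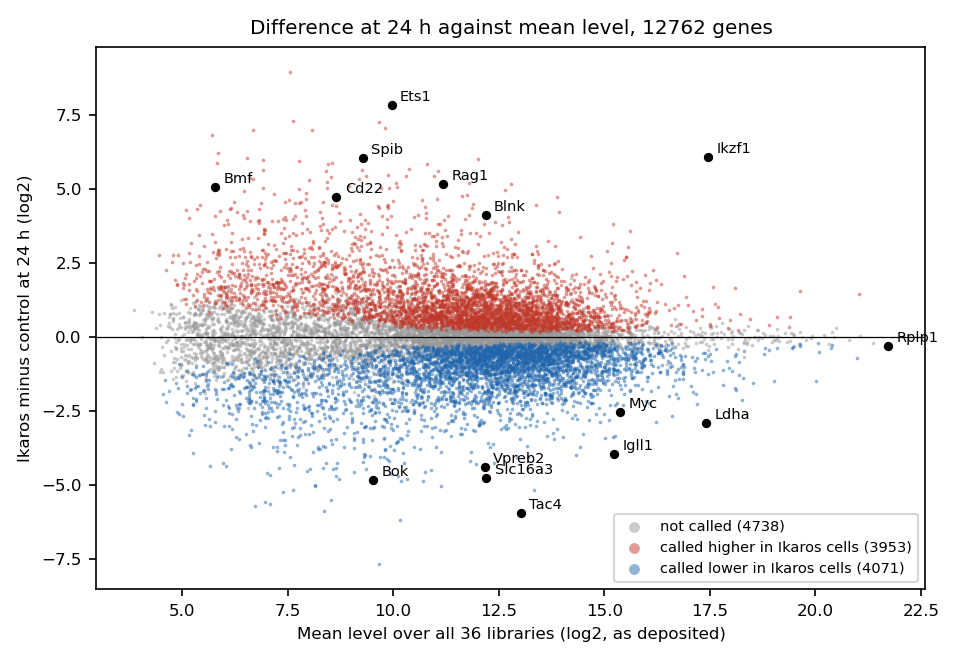
Difference between Ikaros and control cells at 24 h (vertical axis, log2) against the mean level over all 36 libraries (horizontal axis, log2) for 12762 genes, 1 point per gene. Red and blue points are the 3953 genes called higher and the 4071 called lower in Ikaros cells, grey points the 4738 not called, and black points are genes named in the text.

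The Ikaros gene itself was the first check of the labels. Ikzf1 stood at 14.58, 14.61 and 14.65 in the control libraries of batches 1, 3 and 4 and at 20.93, 20.48 and 20.72 in the Ikaros libraries, a difference of 6.10 (SE 0.18, adjusted p 1.79e-19) with the groups far apart. Transcripts of the vector and of the endogenous gene are counted together in this value. In a limma fit of only the 24 h libraries the adjusted p of Ikzf1 was 2.44e-05. It was 0.00141 when culture batch was added to that fit as replicate block. Differences between the lines were also examined for 15 marker genes of pre-B cells, 14 of which were analysed. Cd79a, the signalling chain shared by the pre-B and B cell receptors, stood between 18.39 and 18.64 in all 6 libraries and was not called (difference -0.15, SE 0.10, adjusted p 0.19). Of the 14 markers 10 were higher and 3 lower in Ikaros cells.

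Gene lists are described below by their counts, each to be read against the 31% of all genes called higher and the 31.9% called lower. Of 31 transcription factors of the B lineage 20 were called higher and 4 lower, with a median difference of 0.74. Ets1, an Ets family factor, stood at 6.90, 7.59 and 7.22 in control and at 15.39, 14.54 and 15.31 in Ikaros cells. Spib, an Ets factor related to PU.1, stood at 6.90, 6.94 and 6.09 in control and at 12.86, 12.68 and 12.56 in Ikaros cells. Bach2, a repressor of plasma cell differentiation, stood at 9.48, 9.68 and 9.56 in control and at 15.17, 14.98 and 14.92 in Ikaros cells. The groups lay far apart in all 3, and the differences were 7.84 for Ets1 (SE 0.35, adjusted p 3.3e-16), 6.06 for Spib (SE 0.30, adjusted p 2.13e-15) and 5.45 for Bach2 (SE 0.28, adjusted p 3.12e-15).

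The core factors of B cell specification moved by less. Foxo1, which drives Rag expression, was higher by 2.13 (SE 0.09), Pax5 by 1.14 (SE 0.20) and Ebf1 by 1.01 (SE 0.18). Tcf3, which encodes the E2A proteins, was higher by 0.25 (SE 0.07), a call that was lost in a fit of the 6 libraries alone that used culture batch as replicate block (adjusted p 0.0971). Irf8 was lower by 0.88 on the log2 scale, from 13.79 to 13.96 in control to 12.92 to 13.17 in Ikaros cells. Irf4 stood at 7.64 to 9.04 in control and 8.33 to 9.06 in Ikaros cells and Id3 at 5.92 to 7.52 and 6.37 to 7.76, the groups overlapped in both genes, and neither was called (adjusted p 0.82 and 0.33).

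Among the components of the pre-B receptor, the surrogate light chain genes were lower in every Ikaros library than in any control library. Igll1, which encodes lambda5, stood at 16.63, 16.43 and 16.61 in control cells and at 12.56, 13.08 and 12.17 in Ikaros cells. The difference was -3.96 (SE 0.20, adjusted p 1.95e-15), equal to a 15.5-fold lower level. Vpreb1, its partner chain, stood at 16.15, 15.86 and 16.39 in control cells and at 12.76, 13.22 and 12.15 in Ikaros cells, a difference of -3.42 (SE 0.25, adjusted p 4.8e-12). Vpreb2 stood at 13.73, 14.01 and 14.16 in control cells and at 10.12, 9.05 and 9.57 in Ikaros cells, a difference of -4.39 (SE 0.29, adjusted p 5.69e-13). Igll1 and Vpreb1 lie 4.4 kb apart on chromosome 16. Vpreb1 and Vpreb2 are near-identical genes, and how reads were split between them is uncertain.

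The 250 bases before the start sites of the 3 genes are shown because these promoters belong to the largest falls within the receptor. They were taken from RefSeq (GRCm38.p6). Capitals mark the letters TGGGAA or the reverse complement TTCCCA, the core that Ikaros zinc fingers are known to bind.
Igll1 promoter, chr16:16863986-16864235, reverse strand: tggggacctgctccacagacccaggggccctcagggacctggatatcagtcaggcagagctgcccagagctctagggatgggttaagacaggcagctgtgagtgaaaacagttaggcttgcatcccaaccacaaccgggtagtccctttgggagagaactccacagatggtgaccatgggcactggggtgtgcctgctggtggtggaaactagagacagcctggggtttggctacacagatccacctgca
Vpreb1 promoter, chr16:16869256-16869505, reverse strand: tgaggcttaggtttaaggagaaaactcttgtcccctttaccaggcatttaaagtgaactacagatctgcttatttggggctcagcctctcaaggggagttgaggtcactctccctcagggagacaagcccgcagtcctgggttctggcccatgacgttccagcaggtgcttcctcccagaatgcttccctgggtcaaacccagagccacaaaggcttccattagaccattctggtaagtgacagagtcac
Vpreb2 promoter, chr16:17980315-17980564, forward strand: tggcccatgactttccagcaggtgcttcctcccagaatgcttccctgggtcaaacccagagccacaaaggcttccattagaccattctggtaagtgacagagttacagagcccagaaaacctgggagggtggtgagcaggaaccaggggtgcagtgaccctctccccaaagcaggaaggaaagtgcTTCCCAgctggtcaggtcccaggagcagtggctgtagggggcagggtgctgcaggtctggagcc
The last 106 bases of the Vpreb1 window and the first 106 of the Vpreb2 window were identical at 104 positions (98.1%), so the 2 windows cover the same stretch at different offsets. TGGGAA was searched on both strands and was found once in these 3 windows, at position -64 of Vpreb2 (position -1 is the base just before the start). That position lies outside the 106 shared bases, so the Vpreb1 window does not show whether the matching stretch of Vpreb1 holds it. Over all genes analysed that had a window, 1700 of 8541 windows of this length held it (19.9%), as did 21.6% of the 32851 windows of the RefSeq table.

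Over the whole list of the pre-B receptor and its signalling chain, the surrogate light chain genes included, 8 of 22 genes were called higher and 9 lower, not far from the 31% and 31.9% of all genes. Blnk, the adaptor that links the receptor to its downstream enzymes, stood at 11.48, 11.26 and 10.71 in control and at 15.38, 15.15 and 15.33 in Ikaros cells, a difference of 4.14 (SE 0.19, adjusted p 4.19e-16). Cd79b, the second signalling chain, was higher by 2.29, the kinase Syk by 2.33 and the kinase Lyn by 1.57, while Btk was not called (0.14). Prkcb, a protein kinase C, was lower by 4.35 on the log2 scale (SE 0.75), with levels of 8.17 to 8.96 in control and 3.31 to 4.58 in Ikaros cells, and it was also lower at 0 h, by 4.87. The mean level of Prkcb over all libraries was low, below the 25th percentile of all genes.

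Both recombinase genes were higher in Ikaros cells, as was the end-joining ligase. Of 15 genes of V(D)J recombination and end joining 8 were called higher and 3 lower, with a median of 0.51. Rag1, the catalytic subunit of the recombinase, stood at 10.05, 10.02 and 10.02 in control and at 15.84, 14.93 and 14.90 in Ikaros cells, a difference of 5.19 (SE 0.29, adjusted p 2.52e-14) or 36.5-fold. Rag2, its partner, stood at 9.95, 9.75 and 9.80 in control and at 12.08, 11.81 and 11.87 in Ikaros cells, a difference of 2.08 (SE 0.16, adjusted p 2.03e-11). Lig4, the ligase that seals the broken ends, stood at 10.62, 10.51 and 9.70 in control and at 14.79, 14.77 and 14.81 in Ikaros cells, a difference of 4.51 (SE 0.20, adjusted p 2.56e-16). Xrcc6, one chain of the Ku dimer, was higher by 1.86, and the other chain, Xrcc5, was lower by 0.73 on the log2 scale. Ighj2, a joining segment of the heavy chain locus, was among the 15 largest rises, with levels of 11.53 to 12.60 in control and 16.20 to 16.76 in Ikaros cells. The promoter of Rag1 is shown because Rag1 had the largest difference of the list, and its capitals mark TGGGAA at position -52.
Rag1 promoter, chr2:101649533-101649782, reverse strand: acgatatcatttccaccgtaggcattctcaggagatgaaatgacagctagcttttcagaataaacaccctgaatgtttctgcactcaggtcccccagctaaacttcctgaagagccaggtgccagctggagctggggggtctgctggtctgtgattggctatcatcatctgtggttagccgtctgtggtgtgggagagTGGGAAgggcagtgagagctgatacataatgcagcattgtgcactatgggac
Of 13 genes of the list with a window, Rag1 was the 1 gene that held these letters (7.69%, against 19.9% of all windows of genes analysed).

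The receptor chains for interleukin 7 and interleukin 2 were higher in Ikaros cells. Il7r stood at 13.55 to 13.97 in control and 15.81 to 16.08 in Ikaros cells (difference 2.15, SE 0.16). Il2ra, the interleukin 2 receptor alpha chain CD25, stood at 11.76 to 12.24 and 14.07 to 14.61 (2.43, SE 0.25), and Il2rg, the chain shared by both receptors, at 10.75 to 11.08 and 12.33 to 12.68 (1.59, SE 0.18). In each of these genes the groups did not overlap. Over the 16 genes of the axis 6 were higher and 6 lower, close to the 31% and 31.9% of all genes, the lower ones including the survival gene Bcl2 (-2.20). At 0 h Il2ra had been lower in Ikaros than in control cells, by 2.40.

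Of 13 surface proteins of B cell stages 9 were called higher, 0 lower and 4 not called, with a median of 0.99. Cr2 is not among the 13 because its symbol belongs to 2 identifiers of the table. Cd22, a restraining coreceptor of B cells, stood at 5.99, 6.50 and 6.20 in control and at 10.63, 10.95 and 11.33 in Ikaros cells, a difference of 4.74 (SE 0.46, adjusted p 1.03e-09). The difference of Cd22 was already 5.31 at 0 h, and its change to 24 h was not called (-0.57, SE 0.65, adjusted p 0.496). Ly6d, a surface mark of B lineage precursors, was higher by 3.77 (SE 0.80), with control levels spread over 6.95 to 8.69. Cd38 was higher by 1.78 (SE 0.70), a call that was lost without the batch 3 library of control (adjusted p 0.153) or of Ikaros cells (0.111) and with the preparation term (0.0572).

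**Figure D2:**
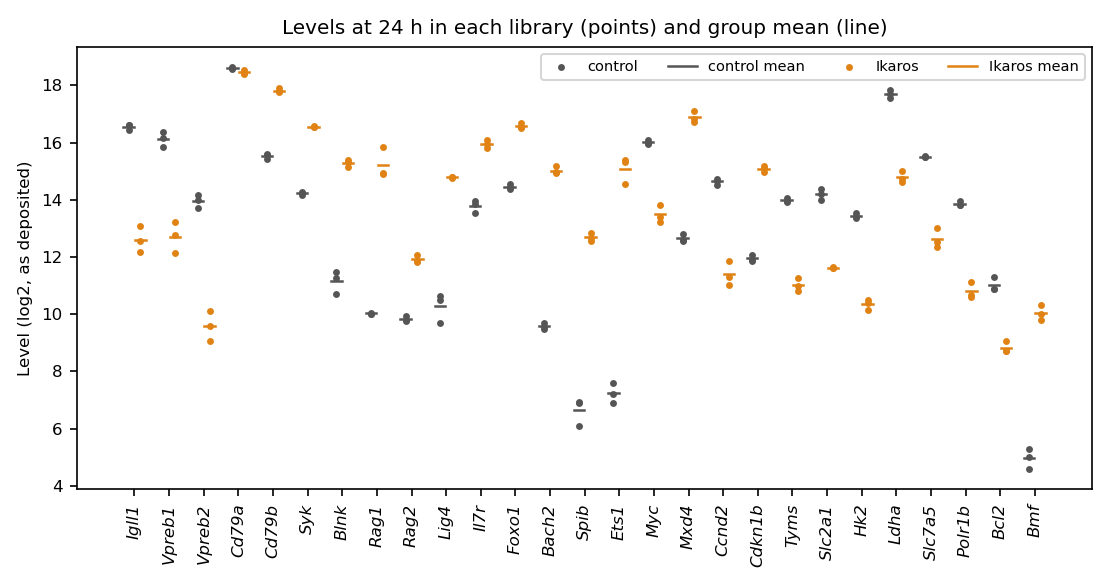
Log2 levels at 24 h (vertical axis) of 27 genes in the 3 control libraries (grey points) and the 3 Ikaros libraries (orange points), with the mean of each group as a line. Igll1, Vpreb1, Vpreb2, Myc, Ccnd2, Ldha and Bcl2 lie lower and Blnk, Rag1, Lig4, Spib, Ets1 and Bmf higher in every Ikaros library, while Cd79a lies between 18.39 and 18.64 in all 6.

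The Myc network and the regulators of the G1 phase were next examined. Myc, the transcription factor that promotes growth, stood at 15.98, 16.09 and 15.96 in control and at 13.22, 13.83 and 13.41 in Ikaros cells, a difference of -2.52 (SE 0.17, adjusted p 5.99e-13). Mxd4, an antagonist that competes with Myc for the partner Max, stood at 12.79, 12.58 and 12.57 in control and at 17.11, 16.83 and 16.71 in Ikaros cells, a difference of 4.23 (SE 0.23, adjusted p 1.35e-14). Tfap4, a known target of Myc, was lower by 2.56 on the log2 scale. Of the 13 genes of the network 6 were higher and 5 lower.

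All 3 D-type cyclins, which open the path from G1 to S phase, were lower in Ikaros cells. Ccnd2 stood at 14.68, 14.74 and 14.51 in control and at 11.30, 11.86 and 11.02 in Ikaros cells (difference -3.25, SE 0.18), Ccnd1 was lower by 4.13 on the log2 scale and Ccnd3 by 1.01. The kinase Cdk6 was lower by 1.18 on the log2 scale. Its sister kinase Cdk4 differed by -0.26 (SE 0.09), a call that was lost without the batch 3 library of control cells (adjusted p 0.0724), without the batch 1 library of Ikaros cells (0.069) and in a fit without the other time points (0.0717). The cyclin-dependent kinase inhibitors Cdkn1b (p27) and Cdkn2c (p18) were higher by 3.14 (SE 0.20) and 2.00 (SE 0.15), with Cdkn1b at 11.87 to 12.07 in control and 14.98 to 15.19 in Ikaros cells. Of the 22 genes of the list 7 were higher and 13 lower.

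Genes of DNA replication were lower almost throughout, whereas the mitotic genes were divided. Of 40 replication genes 35 were called lower and 0 higher (median -0.83), and of 32 mitotic genes 15 were lower and 2 higher (median -0.10). Tyms, which makes thymidylate, stood at 14.06, 13.93 and 13.96 in control and at 10.97, 11.27 and 10.80 in Ikaros cells, a difference of -2.97 (SE 0.15, adjusted p 4.3e-15). Hells, a chromatin remodeller, was lower by 2.23 on the log2 scale, the licensing factor Cdc6 by 1.66, thymidine kinase Tk1 by 1.64, the helicase subunit Mcm2 by 0.81 and the ribonucleotide reductase subunits Rrm2 and Rrm1 by 1.02 and 0.58. In the mitosis list Mybl2 fell by 1.91, Ccnb1 by 1.25 and Cdk1 by 0.86, while Nusap1 was higher by 1.16 and Ccnb2 by 1.06. Mki67, a proliferation marker, stood at 15.78 to 16.68 in control and 16.86 to 16.94 in Ikaros cells and was not called (0.62, SE 0.29, adjusted p 0.0673), but was called with the replicate block (adjusted p 0.0365) and without the batch 1 library of control cells (0.0295).

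The promoter of Cdc6 is shown as 1 of the 12 windows of the replication list that held TGGGAA, among 32 genes of the list with a window (37.5%, against 19.9% of all windows of genes analysed), and that of Ldha for its pair of CACGTG letters. Other lists had higher and lower shares of TGGGAA. It was held by 6 of 12 windows of the MHC list, whose genes were mostly higher, 4 of 8 of the amino acid transporter list, 5 of 13 of the p53 list and 4 of 26 of the mitosis list. CACGTG is the E-box that Myc with Max is known to bind, and it reads the same on both strands. Its last letters can overlap the first of TGGGAA.
Cdc6 promoter, chr11:98907901-98908150, forward strand: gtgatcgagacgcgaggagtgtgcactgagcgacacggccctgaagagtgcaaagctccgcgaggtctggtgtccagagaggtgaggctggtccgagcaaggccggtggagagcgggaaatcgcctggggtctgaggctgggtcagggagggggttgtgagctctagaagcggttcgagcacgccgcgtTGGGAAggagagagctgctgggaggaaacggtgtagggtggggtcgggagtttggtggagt
Ldha promoter, chr7:46845554-46845803, forward strand: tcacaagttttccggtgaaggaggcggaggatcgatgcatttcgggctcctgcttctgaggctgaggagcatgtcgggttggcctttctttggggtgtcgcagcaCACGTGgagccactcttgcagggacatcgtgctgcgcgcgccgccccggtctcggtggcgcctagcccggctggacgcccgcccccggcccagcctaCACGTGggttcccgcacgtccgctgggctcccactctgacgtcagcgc
The marked letters begin at position -61 in Cdc6 and at positions -145 and -48 in Ldha. CACGTG was found in 727 of the 8541 windows (8.51%) and in 6.02% of all windows of the RefSeq table. It was held by 3 of 23 windows of the glycolysis list, 6 of 22 of the translation list, 4 of 18 of the nucleotide synthesis list, 2 of 34 of the ribosome biogenesis list and 6 of 26 of the lysosome list. GTAAACA, which Foxo proteins are known to bind, was held by 2 of 19 windows of the energy stress list and by 1.91% of the windows of genes analysed. It was also held by 1 of 8 windows of the amino acid transporter list, 2 of 21 of the immediate early list and 0 of 34 of the ribosome biogenesis list. GGCGGGAA, a form of the E2F site, was held by 4 of 32 windows of the replication list and by 3.64% of the windows of genes analysed. It was also held by 3 of 23 windows of the chaperone and proteasome list, 3 of 26 of the lysosome list and 0 of 26 of the mitosis list. Neither motif was particular to 1 list. Both motifs were searched on both strands. Among genes called lower by at least 1, 22.4% of 1407 windows held TGGGAA and 9.45% CACGTG, against 17.6% and 7.18% of the 1351 windows of genes called higher by at least 1, and 19.5% and 7.94% of the 2872 windows of genes not called.

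Genes of glucose metabolism were among the groups with the deepest falls. Of the 24 genes of glucose uptake and glycolysis 21 were lower and 2 higher, with a median of -1.42, against 31.9% of all genes called lower. Slc2a1, the glucose transporter Glut1, stood at 13.99, 14.21 and 14.39 in control and at 11.61, 11.63 and 11.65 in Ikaros cells (difference -2.56, SE 0.25). Hk2, an inducible hexokinase that traps glucose in the cell, stood at 13.38, 13.53 and 13.42 in control and at 10.15, 10.50 and 10.38 in Ikaros cells (-3.10, SE 0.15), while the constitutive Hk1 was lower by 0.62 on the log2 scale. Ldha, which converts pyruvate to lactate, stood at 17.55, 17.84 and 17.69 in control and at 14.63, 14.99 and 14.72 in Ikaros cells (-2.91, SE 0.22), equal to a 7.54-fold lower level. Slc16a3, the lactate exporter Mct4, stood at 12.63, 13.15 and 13.16 in control and at 8.12, 8.11 and 8.39 in Ikaros cells (-4.77, SE 0.52), or 27.4-fold lower. Slc16a1, the related monocarboxylate transporter Mct1, went the other way and was higher by 1.96 (SE 0.16), from 15.04 to 15.16 in control to 16.87 to 17.21 in Ikaros cells. The phosphofructokinase genes Pfkp and Pfkl were lower by 2.77 and 2.64 on the log2 scale.

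The mitochondrial and pentose phosphate genes changed less. Of 44 subunits of oxidative phosphorylation 26 were lower and 1 higher (median -0.54), of 21 genes of the TCA cycle 13 were lower and 2 higher (median -0.32), and of 7 genes of the pentose phosphate pathway 5 were lower and 2 higher (median -0.35). The largest falls were 2.02 for Atp5g1 and 1.97 for Ndufa5, both written as log2 decreases, and the cycle enzyme Idh3a fell by 1.70. Pdha1, a subunit of pyruvate dehydrogenase, was higher by 1.44, and Pgls, an early enzyme of the pentose phosphate pathway, by 1.28.

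The genes of energy stress and Foxo signalling moved upward. Of the 21 analysed 14 were higher and 1 lower, with a median of 0.75, against 31% of all genes called higher. Sesn3, a sestrin that restrains mTORC1, stood at 5.63, 6.49 and 6.77 in control and at 11.80, 10.77 and 11.48 in Ikaros cells (5.05, SE 0.38), and was already higher at 0 h, by 3.91. Pik3ip1, an inhibitor of PI3 kinase, stood at 11.03, 10.96 and 10.84 in control and at 14.59, 14.53 and 14.60 in Ikaros cells (3.63, SE 0.16) and differed by 0.07 at 0 h. Ccng2, an atypical cyclin and known Foxo target, was higher by 3.28, Klf6 by 2.72, and Txnip, which limits glucose uptake, by 1.58 (SE 0.21).

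**Figure D3:**
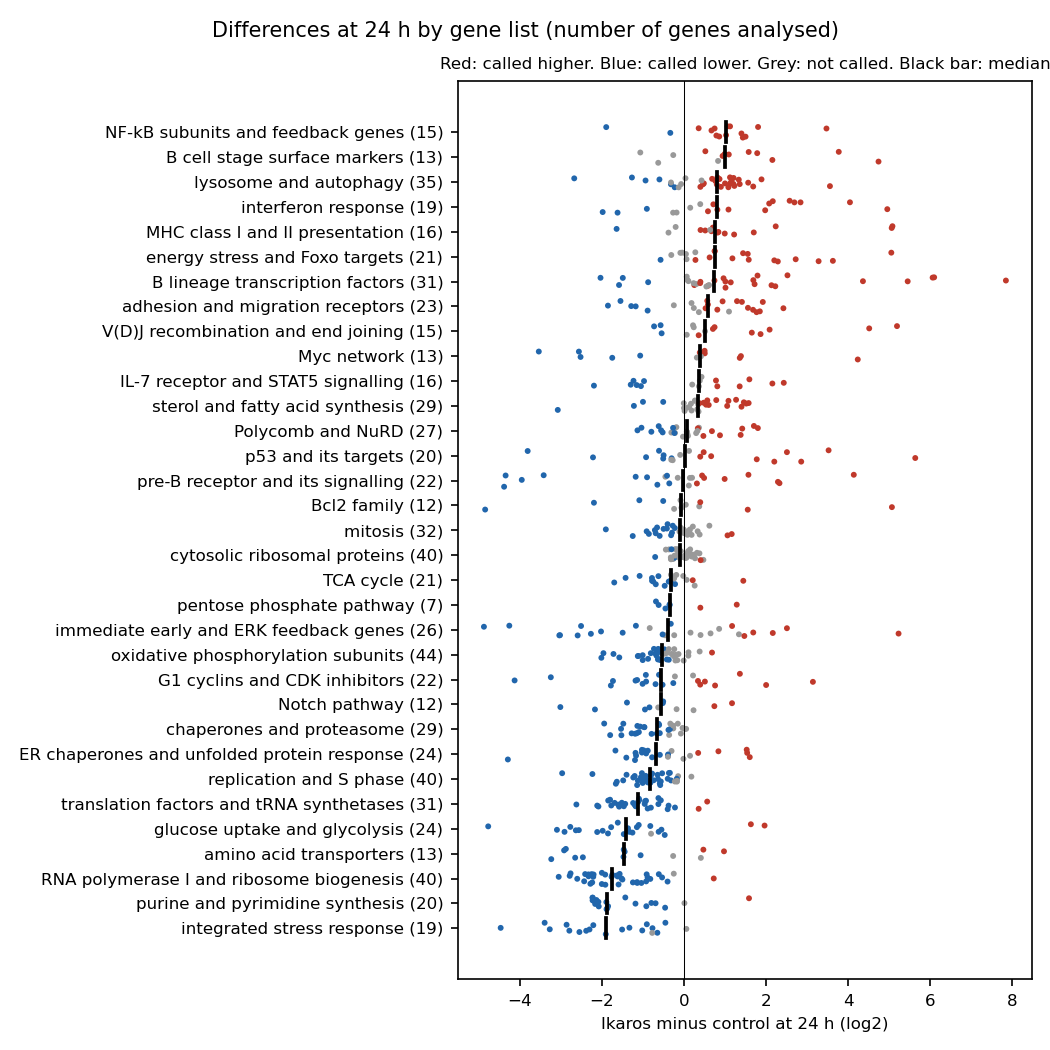
Differences between Ikaros and control cells at 24 h (horizontal axis, log2) for the genes of 33 lists (rows, with the number of genes analysed), 1 point per gene, with a black bar at the median of each list. The integrated stress response, nucleotide synthesis and ribosome biogenesis lists lie lowest, with medians of -1.91, -1.88 and -1.76, and the NF-kB list highest, with a median of 1.02.

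Genes of amino acid transport and of the integrated stress response were mostly lower. Of 13 amino acid transporters 9 were lower and 2 higher (median -1.47), and of 19 genes of the integrated stress response 17 were lower and 0 higher (median -1.91). Slc7a5, the importer of large neutral amino acids, stood at 15.51, 15.51 and 15.52 in control and at 12.53, 13.02 and 12.34 in Ikaros cells (-2.88, SE 0.19), and the cystine importer Slc7a11 was lower by 3.24 on the log2 scale. Asns, asparagine synthetase, stood at 15.54, 15.56 and 15.73 in control and at 12.66, 13.04 and 12.73 in Ikaros cells (-2.80, SE 0.11). Atf3 was lower by 4.47 on the log2 scale, Trib3 by 3.4, Chac1 by 3.27 and Eif4ebp1 by 2.86. Atf4, the factor at the head of this response, differed by -0.77 (SE 0.24) and was not called with the preparation term (adjusted p 0.0519).

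Genes for making nucleotides, ribosomal RNA and protein fell, and the ribosomal proteins mostly were not called. Of 20 genes of purine and pyrimidine synthesis 18 were lower and 1 higher (median -1.88), of 40 genes of RNA polymerase I and ribosome biogenesis 38 were lower and 1 higher (median -1.76), and of 31 translation factors and tRNA synthetases 29 were lower and 2 higher (median -1.12). In the purine pathway Atic, Gart and Prps1 each fell by 2.23 and Impdh1 by 2.21. Polr1b, the second largest subunit of RNA polymerase I, stood at 13.83, 13.95 and 13.81 in control and at 10.60, 11.14 and 10.68 in Ikaros cells (-3.06, SE 0.13), and Polr1a, the largest subunit, fell by 2.00. Nucleolin (Ncl) fell by 1.64 and nucleophosmin (Npm1) by 1.04. Eif2b3, a subunit of the exchange factor for initiation, fell by 2.62, and the tRNA synthetase genes Farsb and Iars differed by -2.09 and -1.85. Of 40 cytosolic ribosomal proteins 35 were not called, 4 were lower and 1 higher, with a median of -0.10 and differences from -0.70 to 0.47. The lowest was Rps2, at 17.23 to 17.46 in control and 16.58 to 16.69 in Ikaros cells. The call of Rps25 (0.40) was lost under 8 and that of Rplp1 (-0.31) under 8 of the 13 other fits.

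Genes of protein folding were mostly lower while lysosomal genes were mostly higher. Of 29 cytosolic and mitochondrial chaperones and proteasome subunits 20 were lower and 0 higher (median -0.67), led by the mitochondrial chaperonin Hspd1 (-1.95) and Hspa9 (-1.80). Of 24 genes of the endoplasmic reticulum 15 were lower and 5 higher. Fkbp11, a prolyl isomerase of the secretory pathway, stood at 13.14, 13.02 and 13.66 in control and at 8.75, 9.88 and 8.30 in Ikaros cells (-4.30, SE 0.44), and Hyou1 fell by 1.67, whereas Xbp1, the factor that drives the secretory program, was higher by 1.60 (SE 0.12) and Herpud1 by 1.54. Of 35 lysosome and autophagy genes 24 were higher and 6 lower (median 0.81). The cathepsin gene Ctss, which cleaves the invariant chain in antigen presenting cells, stood at 9.30, 9.16 and 8.90 in control and at 12.64, 12.47 and 12.93 in Ikaros cells (3.56, SE 0.20). Psap was higher by 1.89 and Neu1 by 1.68, while Mitf, a regulator of lysosomal genes, was lower by 2.68 on the log2 scale. Of 29 genes of sterol and fatty acid synthesis 13 were higher, 4 lower and 12 not called, the sterol enzymes Fdft1 and Mvd rising by 1.57 and 1.52 and the fatty acid elongase Elovl6 falling by 3.08.

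Bcl2, which protects against apoptosis, stood at 10.87, 10.88 and 11.31 in control and at 8.71, 9.07 and 8.70 in Ikaros cells (-2.20, SE 0.20). Bmf, an antagonist of Bcl2 proteins, stood at 5.30, 5.02 and 4.59 in control and at 10.33, 10.00 and 9.78 in Ikaros cells (5.07, SE 0.38), or 33.5-fold higher, and Bcl2l11, which encodes the related protein Bim, was higher by 1.55 (SE 0.19). Bok stood at 11.12, 10.44 and 11.23 in control and at 5.89, 5.94 and 6.41 in Ikaros cells (-4.85, SE 0.31). Mcl1 differed by 0.37 (SE 0.16) and was not called (adjusted p 0.0509), but was called with the replicate block (adjusted p 0.0118), without the batch 3 library of control cells (0.0327), in the fit of only the groups compared (0.0498), with the filter on low levels (0.0429) and with trended and robust eBayes (0.0417). Over the 12 genes of the Bcl2 family 3 were higher and 4 lower, near the 31% and 31.9% of all genes. Among 20 genes of p53 and its known targets 9 were higher and 7 lower. Trp53inp1 was higher by 5.63 (SE 0.29), Btg2 by 3.52 and Fas by 2.86, Plk3 was lower by 3.81 on the log2 scale, and Mdm2 was higher by 0.66 (SE 0.16).

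Of 15 NF-kB subunits and feedback genes 13 were higher and 2 lower, with a median of 1.02. Rel, a subunit prominent in B cells, stood at 9.27, 9.34 and 8.69 in control and at 13.08, 12.27 and 12.36 in Ikaros cells (3.47, SE 0.51), Nfkbie was higher by 1.8 and Birc3 by 1.5, and Traf3, which restrains the alternative pathway, was lower by 1.90 on the log2 scale. Of 26 immediate early and ERK feedback genes 6 were higher and 12 lower. Spry1, a feedback inhibitor of receptor kinase signalling, stood at 12.10, 12.39 and 12.37 in control and at 7.02, 7.94 and 7.25 in Ikaros cells (-4.88, SE 0.25), and Etv4, an Ets factor induced by ERK, fell by 4.26. Gadd45b stood at 9.62, 9.94 and 10.08 in control and at 15.23, 14.64 and 15.44 in Ikaros cells, with a difference of 4.46 at 0 h. Fosb varied among the control libraries (13.43, 12.11 and 10.88), and its call (-3.04, SE 1.11) was lost without the batch 1 library of control cells (adjusted p 0.0977), without the batch 4 library of Ikaros cells (0.117) and with the preparation term (0.0823).

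Genes of antigen presentation and of the interferon response rose in part. Of 16 genes of MHC class I and II presentation 12 were higher and 1 lower (median 0.76). H2-Oa and H2-Ob, the 2 chains of the H2-O molecule that modulates peptide loading in B cells, lie 143.7 kb apart on chromosome 17. H2-Oa stood at 8.72, 8.54 and 8.75 in control and at 14.02, 13.47 and 13.76 in Ikaros cells (5.08, SE 0.21). H2-Ob stood at 8.80, 8.20 and 8.41 in control and at 13.56, 13.55 and 13.47 in Ikaros cells (5.06, SE 0.25). The class I regulator Nlrc5 was higher by 2.23 and the invariant chain Cd74 by 1.70, while H2-Ab1, the class II beta chain, was lower by 1.64 on the log2 scale. Of 19 interferon response genes 12 were higher and 3 lower, led by Gbp2 (4.95, SE 0.53) and Zbp1 (4.04, SE 0.65). Both were low in control cells, at 5.51 to 6.16 and 3.43 to 4.31.

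Among 23 adhesion and migration receptors 13 were higher and 5 lower. Cxcr4, the receptor that holds precursors in bone marrow niches, stood at 12.92, 12.54 and 12.47 in control and at 15.16, 14.92 and 15.11 in Ikaros cells (2.42, SE 0.23), Sema4b was higher by 1.85, and Cd44 fell by 1.86. Of 12 genes of the Notch pathway 7 were lower and 2 higher, including the targets Hes5 (-3.02) and Nrarp (-2.17). Of 27 Polycomb and NuRD genes 8 were higher, 8 lower and 11 not called, close to the 31% and 31.9% of all genes. By at least 1, 4 of them were higher and 2 lower, and the lowest difference of the list was -1.14. In the NuRD complex Chd3 was higher by 1.8 (SE 0.11) and Mbd2 by 1.70, and the Polycomb methyltransferase Ezh2 was higher by 1.42 (SE 0.08).

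Markers of other cell types were examined over whole lists. Of 15 T cell markers 7 were analysed, with 1 higher and 3 lower, and the mean level of the 7 ranged from 9.44 to 9.63 in control and from 8.86 to 9.12 in Ikaros libraries. Of 18 myeloid markers 3 were analysed, with means of 7.02 to 7.48 in control and 7.0 to 7.39 in Ikaros libraries. Itgam was higher by 4.24, Lyz2 lower by 2.94 on the log2 scale, and Csf2ra differed by -1.28. The call of Csf2ra was lost in each fit without 1 library (adjusted p from 0.0567 to 0.139), with the replicate block (0.0565) and with the preparation term (0.122). Of 13 erythroid and megakaryocyte markers 7 were analysed, with 2 higher and 0 lower (means 8.95 to 9.50 and 9.42 to 9.92), and the higher ones were the globin gene Hbb-b2 (1.82) and the transferrin receptor Tfrc (0.91). Of 8 plasma cell markers 3 were analysed, with Xbp1 higher and Mzb1 lower by 0.40 on the log2 scale (means 12.12 to 12.63 and 12.68 to 13.12). Of 12 mature B cell markers 4 were analysed (means 7.39 to 7.63 and 8.72 to 9.01), of which Cd22 and Cxcr5 were higher and H2-Ab1 lower. The call of Cxcr5 (1.56) was lost with the preparation term (adjusted p 0.0514). Of 11 stromal markers Vim alone was analysed, and it was higher by 0.97. The part of other cells in the differences above was not tested.

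The 15 largest rises and 15 largest falls among genes at or above the median level held members outside these lists. The rises ran from 3.91 to 6.10 and included Tubb2b, a beta tubulin isotype, Cerk, a ceramide kinase, Neil1, a DNA glycosylase of base excision repair, and Gpam, an acyltransferase of glycerolipid synthesis. Tifa, an adaptor of NF-kB signalling, stood at 10.69, 10.76 and 10.63 in control and at 15.58, 15.54 and 15.39 in Ikaros cells (4.81, SE 0.13). Osr2, a zinc finger factor, was at 12.08 to 12.46 in control and 16.19 to 16.34 in Ikaros cells, and Rgs7bp and the scaffold protein gene Akap12 were also among the rises. Gm8034 is annotated as a processed pseudogene and varied among the control libraries (10.34, 10.86 and 8.15), so its source is uncertain.

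The falls ran from 3.67 to 5.94 on the log2 scale. Tac4, which encodes hemokinin, a tachykinin made by B cell precursors, stood at 14.62, 14.93 and 14.997 in control and at 8.55, 9.67 and 8.51 in Ikaros cells. The cytokine genes Tnf and Lta, which lie 1.2 kb apart on chromosome 17, were both among the falls. Tnf stood at 12.19, 12.88 and 13.42 in control and at 8.11, 9.28 and 8.52 in Ikaros cells (-4.19, SE 0.44). Lta stood at 15.49, 16.23 and 15.92 in control and at 12.03, 13.06 and 11.38 in Ikaros cells (-3.72, SE 0.44). Ptgs1, a cyclooxygenase, fell by 4.05, Slc17a9, a vesicular nucleotide transporter, by 4.07, Tmem119 by 3.99, the T-box factor gene Tbx19 by 3.89, Cabp4 by 3.72 and Fam195a by 3.67. Gm24305, a small nuclear RNA, was also among them. All 15 rises and all 15 falls were called in the same direction at 18 h. So were 86.5% of the 4171 genes called at 24 h with a difference of at least 1. At 0 h, 3 of the rises were already called higher and 1 was called lower. Of the falls, 1 was already called lower at 0 h and 2 were called higher.

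Whether a 24 h difference was present before induction was asked by the change of the difference from 0 h, which was called for 6180 genes (48.4%), 3088 upward and 3092 downward. The 0 h libraries were collected on separate occasions, and the study describes them as without drug although the labels list the same dose, so this change also compares occasions. The change was called for 5847 of the 8024 genes that differed at 24 h. Within each line, 7736 genes were called for 24 h against 0 h in Ikaros cells and 60 in control cells. The median size of that change among the genes called at 24 h was 0.88 in Ikaros and 0.16 in control cells.

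A smaller set of genes differed between the lines at both times. Of 826 genes called at 0 h and at 24 h, 545 went the same way, and for 275 of these the change was not called, 174 higher and 101 lower. Cd22 belonged to them, as did Mycn, a Myc family member, which differed by -4.63 at 0 h and -3.54 at 24 h (change 1.09, SE 0.72, adjusted p 0.219). Prkcb differed by -4.87 and -4.35 (change 0.52, SE 1.06, adjusted p 0.713), and the plexin gene Plxnb2 by 1.84 and 1.92 (change 0.08, SE 0.29, adjusted p 0.835). Ikzf1 differed by 5.19 at 0 h and Ets1 by 4.93, and for both the change to 24 h was called (0.90 and 2.91, adjusted p 0.00512 and 2.52e-05).

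The other 281 genes went opposite ways at the 2 times, 152 from lower to higher and 129 from higher to lower in Ikaros cells. Il2ra went from -2.40 to 2.43 and Hbb-b2 from -3.43 to 1.82. Akap12 went from -1.11 to 4.75, Dok3, an adaptor that restrains B cell receptor signalling, from -0.83 to 3.06, and Osbpl5, a lipid transfer protein, from -0.40 to 2.85. Ccnd1 went from 1.90 to -4.13, Ccnd2 from 0.70 to -3.25, Ptgs1 from 0.71 to -4.05, Coro2a from 0.74 to -2.76, and the neutral amino acid transporter Slc1a4 from 0.45 to -2.92. The change was called for all 281 genes, which calls of opposite sign at the 2 times nearly fix in advance.

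**Figure D4:**
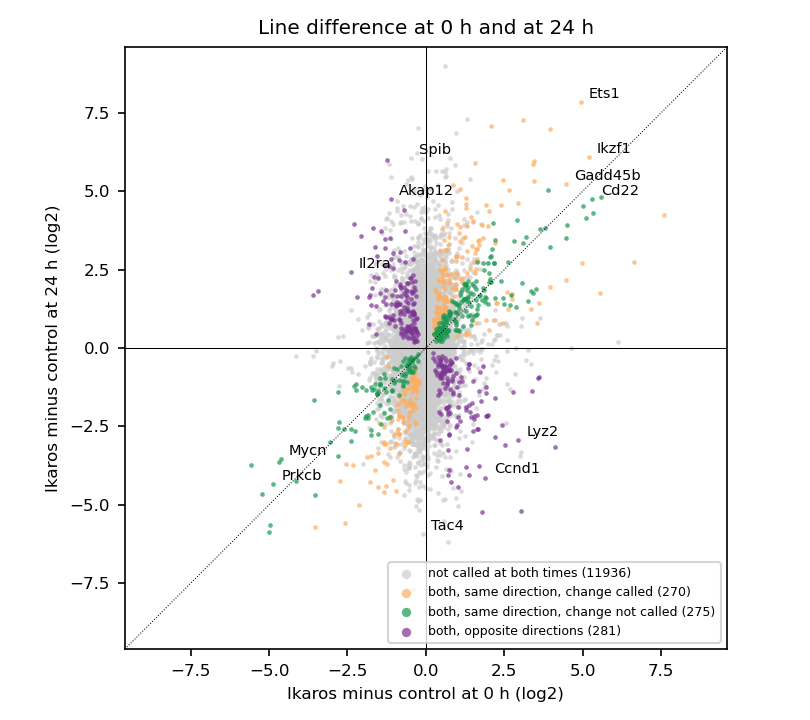
Difference between Ikaros and control cells at 0 h (horizontal axis, log2) and at 24 h (vertical axis, log2) for 12762 genes, with a dotted line where both are equal. Green points are the 275 genes called at both times in the same direction without a called change, orange points the other genes called in the same direction, purple points the 281 called in opposite directions, and grey points the rest.

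The difference was compared between 18 h and 24 h to ask what was particular to the last time point. The change was called for 336 genes (2.63%), 91 upward and 245 downward, and 2084 genes passed an unadjusted p under 0.05. Of the 336, 210 were called at both times and in 188 of those the difference was wider at 24 h in the same direction, while 101 were called at 24 h and not at 18 h. Among genes called at 24 h and at or above the median level, 3 of the 5 largest falls were glycolytic. Ldha differed by -1.62 at 18 h and -2.91 at 24 h, Pfkl by -1.30 and -2.64, and Aldoa by -0.49 and -1.78. The replication clamp gene Pcna went from 0.11 to -1.24 and the histone gene Hist1h2bk from 0.09 to -1.27. In the other direction the nuclear RNA Malat1 went from 0.85 to 2.02, Sp110 from 0.26 to 1.28, Nfkbia, the inhibitor of NF-kB, from 0.42 to 1.40, Elk4 from 0.18 to 1.12, and Gm9385 from -0.84 to 1.64.

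The number called for this change rested on the fit. It was 560 with the replicate block, 0 with the preparation term (1123 at an unadjusted p under 0.05) and 0 in a limma fit of only the 18 h and 24 h libraries (2273 at an unadjusted p under 0.05). Without the batch 4 library of control cells at 24 h it was 136, without the batch 1 library of Ikaros cells 200 and without the batch 4 library of Ikaros cells 170. For Aldoa, for example, the change was -1.28 (SE 0.28, adjusted p 0.012) in the fit of all groups and -1.34 (SE 0.35, adjusted p 0.168) with the preparation term.

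**Figure D5:**
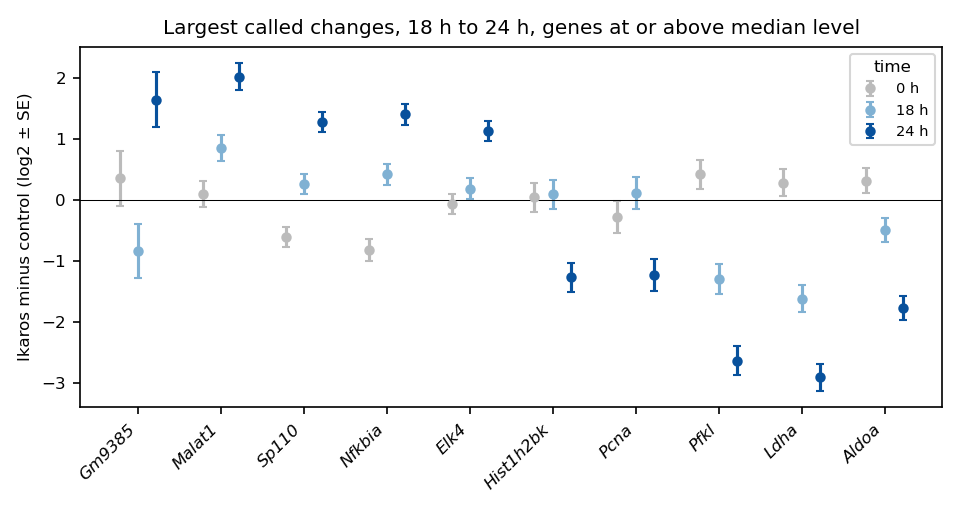
Difference between Ikaros and control cells (vertical axis, log2, with the standard error as bars, n = 3 libraries per group) at 0 h, 18 h and 24 h for the 5 genes with the largest called upward and the 5 with the largest called downward change from 18 h to 24 h among genes called at 24 h and at or above the median level. Ldha, Pfkl and Aldoa lie lower at 24 h than at 18 h, at -2.91, -2.64 and -1.78. The standard errors are those of the fit of all 36 libraries.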

How the data were processed

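The authors deposited 1 table of log2 values for 36 mRNA-seq libraries. According to the study's methods, reads were aligned to mm10 with TopHat2, assigned to genes with HTSeq, normalised with cqn and corrected for preparation runs by ComBat in its non-parametric form. The lowest deposited value is exactly 1, so a constant may have been added, which the methods do not mention. The base of the logarithm is not written in the table and was taken as 2 from cqn. Tool versions and the strand setting of the counting are not given in the sources used here, so overlapping, antisense and near-identical genes are uncertain.

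From these values, 1 limma model (3.58.1, R 4.3.3) with a mean for each of 12 groups was fitted over 12762 genes (lmFit, contrasts.fit, eBayes), two-sided with Benjamini-Hochberg adjustment. According to the methods the time course was repeated in separate batches of cells of the same 2 lines, so p-values measure the spread between cultures and not between independently made lines. The members, gene lists and tests were chosen with earlier results of these data known. Named genes were the 15 called genes with the greatest rise and the 15 with the greatest fall that had a symbol, groups that did not overlap and a mean of 11.72 (the median of all genes) or more, landmarks and up to 4 called members of each of 40 lists, and up to 5 genes per direction for the change from 18 h and for opposite directions at 0 h and 24 h. Btk, Cd79b, Lyn, Slc16a1, Syk and Xrcc5, and the opposite-direction examples Il2ra, Hbb-b2 and Ccnd1, were added after their values were seen. Cr2, a symbol with 2 identifiers, was left out of the lists. Positions are from GENCODE release M21 (GRCm38). Promoter windows were matched by symbol for 8541 of 12743 symbols, taking the window nearest to the GENCODE start.

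The labels give a batch number, and 24 h libraries of the 2 lines with the same number were taken as a pair. According to the methods the cells of an experimental batch were harvested together, whereas those for 0 h were obtained separately. The replicate block over all libraries also used the number at 0 h, where it need not mark the same culture as at later times. The deviations of paired libraries from their group means at 24 h correlated at 0.121, -0.026 and -0.0207 across genes in batches 1, 3 and 4. Preparation runs were read from the study's quality sheet. The alternatives were culture batch as replicate block, a preparation term, only the groups compared, a filter at the 25th percentile of mean level, quantile normalisation, trended and robust eBayes, a call at 0.01, and leaving out each 24 h library in turn. Values were simulated for the comparison at 24 h over 12762 genes, with changes placed in 67, 67 and 66 of them. The calls held 14 of 67 changes of 0.5, 44 of 67 of 1 and 62 of 66 of 2 on the log2 scale. They also held 8 unchanged genes. In the data 8024 genes were called, and detection with that many differing genes was not tested.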

Additional observations from a re-analysis of the deposited data

Results flagged for a closer look

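The line difference at 24 h was set against the same difference at 2 earlier times with an interaction contrast, and every result below is a called change of that difference (limma, adjusted p under 0.05). From 0 h to 24 h the difference changed for 6180 genes. Among genes at or above the median level that were called in opposite directions at the 2 times, the 5 with the largest positive and the 5 with the largest negative difference at 24 h were taken. Calls of opposite sign nearly fix a called change, which this choice also required. The changes were 5.86 for Akap12, 3.89 for Dok3, 3.69 for D930015E06Rik, 3.42 for 5730559C18Rik and 3.25 for Osbpl5, and they were -4.76 for Ptgs1, -4.62 for Tbx19, -3.95 for Ccnd2, -3.50 for Coro2a and -3.37 for Slc1a4. The 0 h libraries were collected on other occasions, and the part of this in the changes was not tested.

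From 18 h to 24 h the difference changed for 336 genes. The 5 largest of each direction among genes called at 24 h and at or above the median level were Gm9385 (2.48), Malat1 (1.17), Sp110 (1.02), Nfkbia (0.98) and Elk4 (0.94) upward, and Hist1h2bk (-1.36), Pcna (-1.35), Pfkl (-1.34), Ldha (-1.29) and Aldoa (-1.28) downward. With a preparation term 0 of these changes were called, with adjusted p values from 0.168 to 0.32 for the 10 genes. Single libraries were not examined for standing apart, because the groups held 3 libraries.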

How the results depend on the processing

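The number of genes called at 24 h was 8024 and lay between 6620 (the filter, over 9571 genes) and 8362 (replicate block) in the other fits, with 7352 to 7605 when 1 library was left out. It was 7499 when only the 6 libraries were fitted with the replicate block and 6709 at a threshold of 0.01. In 13 fits without the filter, 6189 genes were called in each. The change from 0 h gave 6180 genes, 4576 with the preparation term, 7095 in the fit of only the groups compared, and 5706 to 5962 without 1 library. The change from 18 h gave 336 genes, 560 with the replicate block, 0 with the preparation term, 0 in the fit of only the groups compared, and 136 to 285 without 1 library. The cause was not tested. The replicate block changed the calls of Mki67, Mcl1 and Csf2ra and no other named gene in the fit of all libraries. The preparation term ended the call of 8 of the 205 named genes. Irf4, not called, changed sign without 1 library, with values from -0.36 to 0.34. Counts of called genes in the lists moved by over 1.5 times in 12 comparisons of a list with another fit and stayed within that in 507. List medians moved in 41 and not in 478. A median counted as moved when its shift reached the standard deviation of the list means between 24 h libraries, with the variances of the 2 lines summed. The median of the quantile-normalised differences moved by -0.0103. The deposited values hold no depth, and precision is set by 3 libraries per group.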

Other observations

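The share of genes called at 24 h differed by annotated class. It was 66.2% of 10985 protein coding genes, 48.7% of 267 lincRNAs, 45.8% of 299 antisense genes, 34.4% of 131 snoRNAs and 28.2% of 411 processed pseudogenes. Of the snoRNAs 34 were lower and 11 higher in Ikaros cells, with a median difference of -0.52, and of the processed pseudogenes 76 were lower and 40 higher. The median SE was 0.17 for protein coding genes and 0.60 for snoRNAs.

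When the genes were ordered by mean level and divided into 4 classes of 3190 or 3191, 47.3% of the lowest class were called, and 65%, 70.3% and 68.9% of the classes above it. In the lowest class 867 genes were higher and 643 lower, and in the highest class 870 were higher and 1330 lower, with a median difference of -0.17.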
